A study of Rattus norvegicus with 24 samples.

Results

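Akr7a3, Akr1b8, Ephx1, Nqo1, Hmox1, Txnrd1 and Srxn1 are 7 liver enzyme genes of detoxification and antioxidant defence, named by a list and followed here over diets low or normal in protein. All 7 were on the array, each through 1 probe set paired with that gene alone, out of 17245 genes measured. RNA came from the livers of 24 male Wistar rats, 1 rat per array. The rats ate a diet with 5% protein or a control diet with 20% protein for 1 week or 4 weeks, which gave 4 groups of 6 animals, and no group carried a drug or a genetic change. The percentages and times are those of the sample titles. The codes in the sample descriptions are 4 and 18 where the titles have 5 and 20, and the series' design text speaks of 4 weeks alone, so the exact diets are in some doubt. The study concerned fatty liver in malnutrition, and the comparison of the diets asks here how far these defence genes followed the shortage of protein.

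NRF2 (gene Nfe2l2) is a transcription factor that KEAP1 holds back in unstressed cells. Oxidants and electrophiles free it, and it then binds antioxidant response elements with a small MAF partner and switches on enzymes that reduce or conjugate reactive compounds. CAR (Nr1i3) and PXR (Nr1i2) are nuclear receptors that raise drug-metabolizing enzymes of the liver, and AHR is a receptor for planar aromatic compounds. The aldo-keto reductases Akr7a3 and Akr1b8 reduce reactive aldehydes, the former being the aflatoxin aldehyde reductase of rat liver. Ephx1, microsomal epoxide hydrolase, opens epoxides with water, and Nqo1 reduces quinones. Hmox1 is the inducible haem oxygenase, which degrades haem and is also strong in macrophages. Txnrd1 keeps cytosolic thioredoxin reduced, and Srxn1, sulfiredoxin, repairs overoxidized peroxiredoxins.

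Start-site windows of 4 of the genes are shown as examples of members called at 4 weeks (Akr7a3, Txnrd1 and Srxn1) and of one that was not (Nqo1). Each window runs from 250 bases before to 30 bases after an annotated start, in the direction of the gene, from the RefSeq promoter table of build GRCr8. Capitals mark matches to the core of the antioxidant response element, searched as TGACNNNGC or TGAGNNNGC on both strands.
Akr7a3: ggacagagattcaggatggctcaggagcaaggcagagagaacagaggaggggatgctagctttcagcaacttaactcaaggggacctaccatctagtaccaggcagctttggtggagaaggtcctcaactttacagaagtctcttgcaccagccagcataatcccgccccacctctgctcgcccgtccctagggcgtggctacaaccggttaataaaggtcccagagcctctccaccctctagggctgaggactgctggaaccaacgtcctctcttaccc
Nqo1: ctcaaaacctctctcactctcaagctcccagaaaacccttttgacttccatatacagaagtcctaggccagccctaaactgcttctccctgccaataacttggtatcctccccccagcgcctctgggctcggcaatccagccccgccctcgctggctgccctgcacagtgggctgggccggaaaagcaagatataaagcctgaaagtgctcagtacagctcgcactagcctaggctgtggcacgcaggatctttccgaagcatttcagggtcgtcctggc
Txnrd1: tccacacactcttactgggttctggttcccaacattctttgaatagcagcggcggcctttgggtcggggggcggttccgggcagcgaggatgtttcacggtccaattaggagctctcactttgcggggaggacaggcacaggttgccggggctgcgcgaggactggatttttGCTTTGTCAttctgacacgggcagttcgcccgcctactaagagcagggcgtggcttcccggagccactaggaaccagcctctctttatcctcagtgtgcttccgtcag
Srxn1: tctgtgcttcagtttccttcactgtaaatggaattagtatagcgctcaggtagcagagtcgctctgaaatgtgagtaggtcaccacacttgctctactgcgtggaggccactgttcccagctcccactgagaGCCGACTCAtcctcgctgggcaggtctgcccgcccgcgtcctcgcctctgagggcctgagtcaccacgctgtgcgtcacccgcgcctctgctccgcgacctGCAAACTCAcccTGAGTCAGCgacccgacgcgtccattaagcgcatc

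The Akr7a3 window lies at chr5:156876471-156876750 on the plus strand and the Nqo1 window at chr19:52220238-52220517 on the minus strand. Neither holds a match to that core. Sequence outside the windows was not searched, so a window without a match does not show that a gene lacks such an element. The Txnrd1 window, at chr7:22755875-22756154 on the minus strand, belongs to the second of 2 annotated starts and holds 1 match, GCTTTGTCA, whose first base lies at -78 from the start. The Srxn1 window at chr3:161064562-161064841 on the plus strand holds 3 matches, GCCGACTCA at -118, GCAAACTCA at -17 and TGAGTCAGC at -5. Such a core occurred in 25.4% of the 33469 windows of this length in the table, so a single match is common. Akr1b8 (1 match, at -70) and the second of 2 Ephx1 starts (1 match, at -57) also had it, while the first starts of Ephx1 and Txnrd1 did not. Hmox1 was not matched to the table. The core of the AHR site, GCGTG on either strand, stood in 28.3% of windows and in those of Akr7a3, Nqo1, Srxn1 and the second start of Txnrd1. A match is a string of letters and not a measured binding site.

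In the same build, Akr7a3 (probe set 10873387) lies on chromosome 5 from 156876721 to 156884599, and Akr1b8 (10854406) on chromosome 4 from 63964421 to 63976995. Ephx1 (10770342) lies on chromosome 13 from 95246079 to 95275852 and Srxn1 (10840791) on chromosome 3 from 161064812 to 161070372. Nqo1 (10810867) and Hmox1 (10806122) share chromosome 19, at 52205374 to 52220267 and 13452365 to 13479823. Txnrd1 (10901413) lies on chromosome 7 from 22717620 to 22802553. Which exons the probes read was not analysed here. Values below are log2 of the array intensity, a scale on which 1 unit is a doubling, and levels are compared between animals and not between genes.

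The median intensity of an array was 42.4 at the lowest and 45.5 at the highest, and no pair of arrays was identical. Hepatocyte markers were strong in every group, with 7 measured markers summing to 54545 to 75294 in intensity. The animal numbers of the titles form 4 runs, and each run holds animals of both diets and of a single feeding time. Animals of the second run (49 to 54) and of the fourth (74 to 79) ate the diets for 1 week, 3 per diet in each run. Those of the first run (22 to 32), 5 on 5% protein and 2 on 20%, and of the third (59 to 73), 1 on 5% and 4 on 20%, ate them for 4 weeks. At 4 weeks most 5% animals were thus of the first run and most 20% animals of the third, so diet and run are partly mixed there. The labels do not say what a run stands for, and values are therefore also given within runs. At 1 week the 20% animals of the fourth run differed from those of the second at an adjusted p below 0.05 (limma) in 10.8% of all genes. Among these were 4 of the 7 detoxification genes, as described further on.

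At 4 weeks, 5 of the 7 genes were higher on 5% protein and none was lower: Akr7a3, Akr1b8, Ephx1, Txnrd1 and Srxn1. A gene was called at an adjusted p below 0.05 (limma, Benjamini-Hochberg over all genes). The median difference of the 7 genes was 0.70 on the log2 scale, against -0.01 for all genes. Of all genes 13.4% were called higher and 12.4% lower in this comparison, so calls were common. The 7 genes were chosen with earlier results of these data known, so their count and median beside those of all genes are a description and not a test. Nqo1 and Hmox1 were not called. At an unadjusted p below 0.05 there were 6, Nqo1 being the sixth, and the share of all genes at that level is not given here.

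Akr7a3 showed the largest difference of the 7. On 5% protein for 4 weeks its log2 intensity was 10.36 in the lowest animal, 11.83 at the median and 12.64 in the highest, against 8.87, 9.26 and 9.69 on 20%. In intensity the medians were 3628 and 613. All 6 animals on 5% lay above all 6 on 20%, a separation that 6.55% of all genes showed in that direction. The means were 11.67 ± 0.79 and 9.27 ± 0.27 (SD, n = 6), a difference of 2.40 ± 0.29 (SE) or 5.27-fold (adjusted p = 1.09e-06). The spread on 5% was wide, and animal 26 was the lowest. Among the first-run animals the difference was 2.54 ± 0.42 (adjusted p = 0.000279), and in the third run, where 1 animal ate 5% protein, it was 1.94 ± 0.56 (adjusted p = 0.0259).

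The second aldo-keto reductase, Akr1b8, moved less. Its log2 intensity on 5% protein was 6.13 at the lowest, 6.84 at the median and 7.43 at the highest, against 5.70, 5.97 and 6.21 on 20%. The groups overlapped through 1 animal on 5%: 5 of the 6 on 5% lay above the highest on 20% and animal 59 did not. The difference was 0.80 ± 0.17, or 1.75-fold (adjusted p = 0.000989). With run within its week as a covariate it was 0.55 ± 0.18 (adjusted p = 0.0292). Animal 59 is the single 5% animal of the third run, where the difference was 0.27 ± 0.29 (adjusted p = 0.651), while within the first run it was 0.71 ± 0.22 (adjusted p = 0.032). Probe sets of close family members such as Akr1b10 and Akr1b8 can share sequence, so a part of each signal may come from the other gene.

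Ephx1 changed by the least of the 5 called genes. It ranged from 12.23 through a median of 12.45 to 12.71 on 5% protein and from 11.90 through 12.05 to 12.31 on 20%. Again 5 of 6 animals on 5% lay above the highest on 20%, the exception being animal 26. The difference was 0.41 ± 0.09, or 1.33-fold (adjusted p = 0.00194), and it was 0.41 ± 0.13 within the first run and 0.38 ± 0.18 within the third (adjusted p = 0.0399 and 0.199).

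The enzymes of the thioredoxin branch, Txnrd1 and Srxn1, rose by similar amounts. Txnrd1 ran from 8.28 through a median of 8.89 to 9.60 on 5% protein and from 8.05 through 8.21 to 8.34 on 20%, so the 5% animals were the more widely spread. Its difference was 0.68 ± 0.19, or 1.60-fold (adjusted p = 0.00861). Srxn1, whose window held 3 matches, ran from 5.43 through 6.15 to 6.48 on 5% and from 5.14 through 5.35 to 5.67 on 20%. Its difference was 0.70 ± 0.17, or 1.63-fold (adjusted p = 0.00342). For both genes 5 of the 6 animals on 5% lay above the highest on 20%, and animal 26 did not. Within the first run Txnrd1 was called (0.66 ± 0.20, adjusted p = 0.0308) and Srxn1 was not (0.46 ± 0.19, adjusted p = 0.116); within the third run neither was (0.28 ± 0.27, adjusted p = 0.597, and 0.76 ± 0.26, adjusted p = 0.0602).

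Nqo1 and Hmox1 were not called at 4 weeks. Nqo1 ran from 8.59 through a median of 9.51 to 10.24 on 5% protein and from 8.08 through 8.46 to 8.87 on 20%. Although 5 of the 6 animals on 5% lay above the highest on 20%, the difference of 0.98 ± 0.43, or 1.98-fold, did not pass (adjusted p = 0.0993). The error is estimated over all 4 groups, and the SD of Nqo1 was 1.22 on 20% at 1 week against 0.67 and 0.35 on 5% and 20% at 4 weeks. With the 4 week groups alone the same difference passed (SE 0.27, adjusted p = 0.0138). With run within its week as a covariate it was 0.75 ± 0.40 and did not pass (adjusted p = 0.195). Within runs it was 0.66 ± 0.44 in the first and 0.92 ± 0.59 in the third, neither called (adjusted p = 0.356 and 0.367). Hmox1 ran from 7.11 through 7.39 to 7.68 on 5% and from 6.90 through 7.09 to 8.02 on 20%, and the groups overlapped. Its difference was 0.17 ± 0.20 (adjusted p = 0.597; 95% interval -0.24 to 0.59). It was 0.33 without animal 63, the highest on 20%, and 0.11 at the lowest when another animal (67) was left out; neither was called.

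Within the runs of the 4 week animals the counts were smaller. In the first run 4 of the 7 genes were called higher, where 8.32% of all genes were, and in the third run 1 of 7, where 6.83% were. The third run rests on 1 animal on 5% protein, and the fit assumes that this animal's group varies as the rest do. All 7 differences were positive in the first run and 6 in the third. Animal 26 was the lowest of its group in 4 of the 7 genes, as it was in 22% of all genes, and leaving it out did not change which 5 genes were called in the diet comparison at 4 weeks.

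Markers of other liver cells moved with the diet at 4 weeks. Of 10 measured Kupffer cell and macrophage markers 9 fell. Over all 10 the median was -0.60, and the summed intensity was 3992 to 4919 on 5% protein against 5859 to 9718 on 20%. Stellate cell markers fell in 3 of 7, hepatocyte markers in 4 of 7 and erythroid markers in 2 of 6. Of 5 cholangiocyte markers 2 rose, Epcam by 1.55 ± 0.31 and Sox9 by 0.66 ± 0.13. Krt19 (-0.52 ± 0.25), Krt7 (-0.02 ± 0.11) and Cftr (0.35 ± 0.15) did not pass. The summed intensity of all 5 was 294 to 704 on 5% and 249 to 362 on 20%. Of 4 endothelial markers none was called, and 1 of 6 neutrophil and lymphocyte markers fell. In this comparison 12.4% of all genes were called lower and 13.4% higher. At 1 week 3 of 6 erythroid markers and 1 of 7 stellate cell markers fell, and no marker of the other cell types was called. At that time 2.44% of all genes were called lower and 1.86% higher. In whole liver, fewer cells of a type and less RNA per cell cannot be told apart, and these intensities have no 0 that would mark an absent gene. The part of these cell types in the differences of the 7 genes was not tested.

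**Figure D1:**
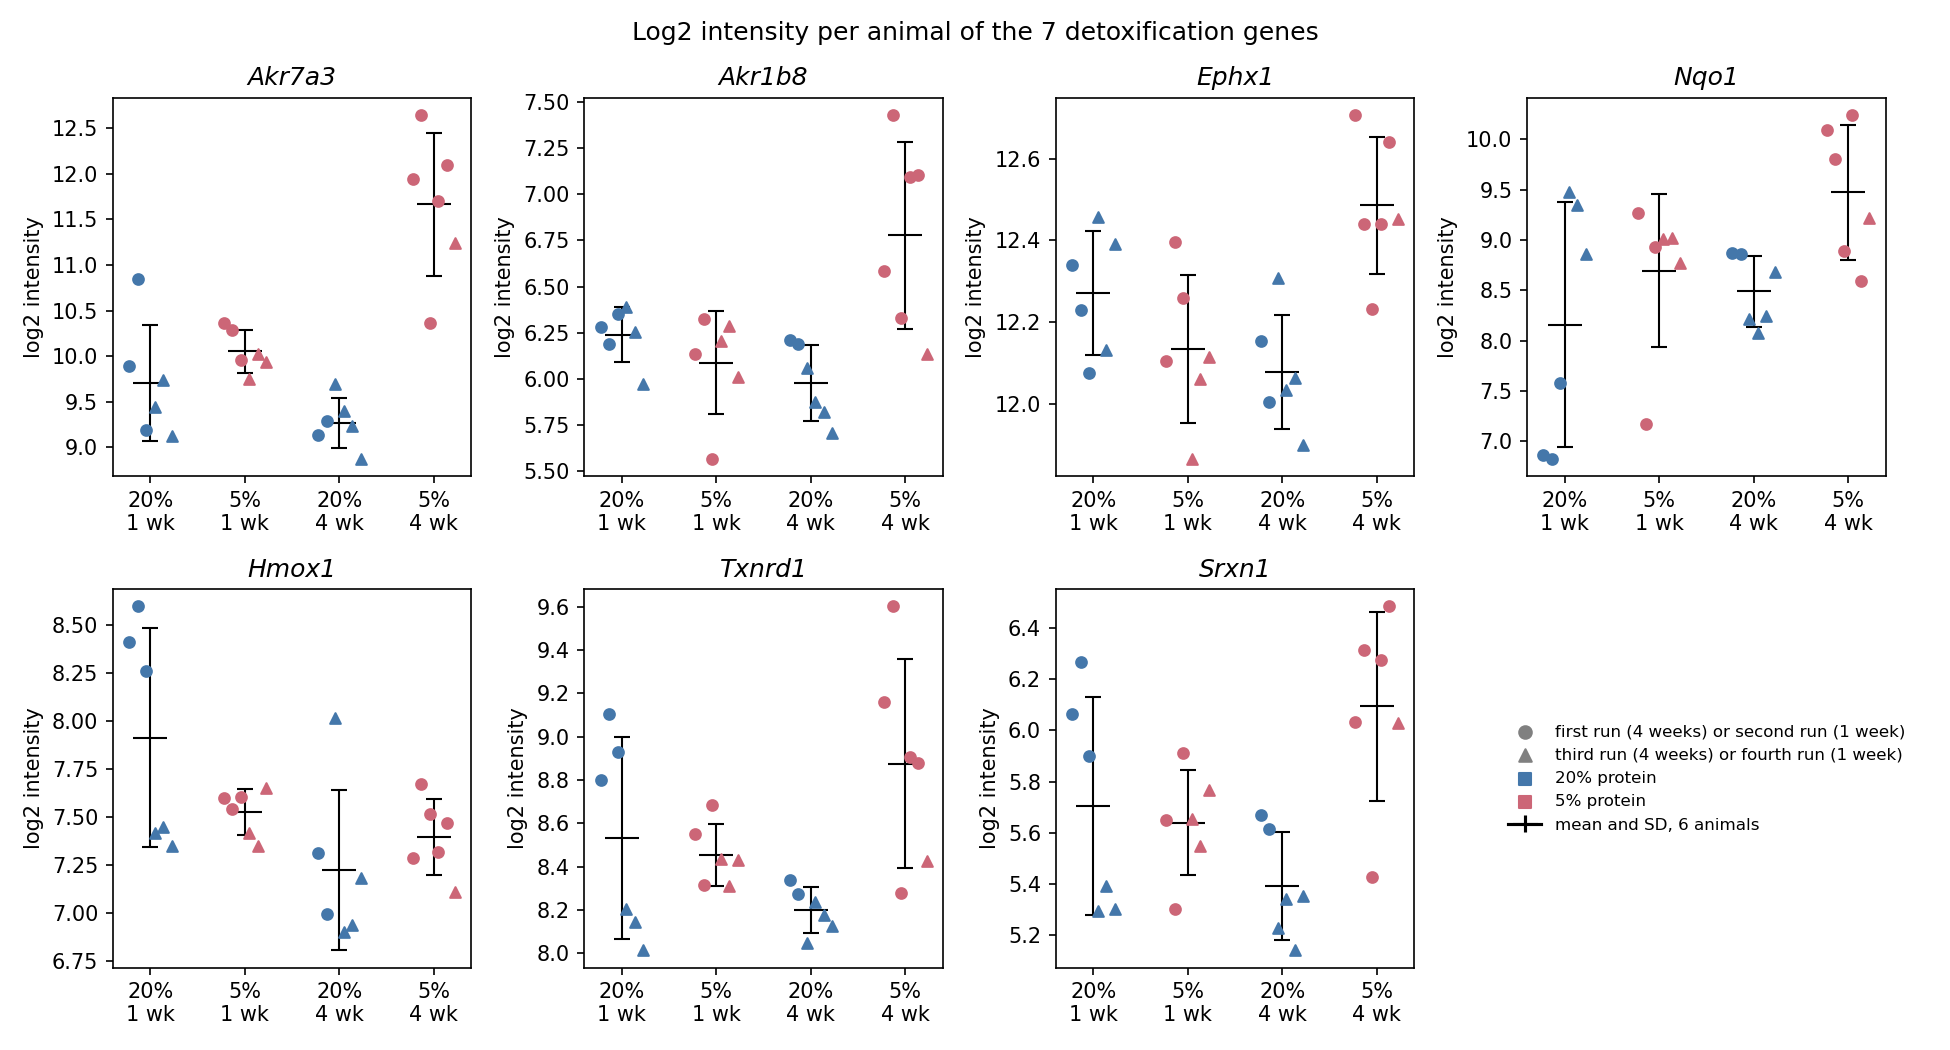
Log2 intensity of the 7 genes in each of the 24 rats, by diet and time on the horizontal axis; bars give the mean and SD of 6 animals, colours the diet, and circles and triangles the run of animal numbers. For Akr7a3 the 5% group at 4 weeks has the highest mean, with animals from 10.36 to 12.64 against 8.87 to 9.69 on 20% at 4 weeks. The 20% animals at 1 week split by run for Nqo1, Hmox1, Txnrd1 and Srxn1.

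At 1 week none of the 7 genes was called between the diets, and none had an unadjusted p below 0.05 (limma). Of all genes 4.3% were called, 1.86% higher and 2.44% lower, so 0 of 7 lies near that background. In no member did the diets separate, as they did in 2.56% of all genes. The median difference was -0.08 on the log2 scale, and 2 of the 7 differences were positive. Akr7a3 had medians of 9.99 on 5% (lowest 9.75, highest 10.36) and 9.59 on 20% (9.12 to 10.85), a difference of 0.35 ± 0.29 (adjusted p = 0.606; 95% interval -0.24 to 0.94). Animal 52 on 20%, at 10.85, lay above every 5% animal.

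The other members overlapped between the diets in the same way. Akr1b8 ran from 5.56 through a median of 6.17 to 6.32 on 5% protein and from 5.97 through 6.27 to 6.39 on 20%. Ephx1 ran from 11.86 through 12.11 to 12.40 on 5% and from 12.07 through 12.28 to 12.46 on 20%. In both genes the lowest animal ate 5% protein and the highest ate 20%. Nqo1 covered most of its whole range within the 20% group, from 6.82 through 8.22 to 9.47, against 7.17 through 8.97 to 9.27 on 5%. For Hmox1 the 20% animals spanned 7.35 to 8.60 (median 7.86) and the 5% animals 7.35 to 7.65 (median 7.57). The 5% animals thus sat at the lower end of the 20% values. Txnrd1 spanned 8.31 to 8.68 on 5% (median 8.43) within 8.01 to 9.10 on 20% (median 8.50), and Srxn1 spanned 5.30 to 5.91 (median 5.65) within 5.29 to 6.27 (median 5.65).

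None of these differences at 1 week passed. Nqo1 was 0.54 ± 0.43 and Hmox1 -0.39 ± 0.20 (adjusted p = 0.591 and 0.324). For Akr1b8, -0.15 ± 0.17, Ephx1, -0.14 ± 0.09, Txnrd1, -0.08 ± 0.19, and Srxn1, -0.06 ± 0.17, adjusted p lay between 0.496 and 0.911. These intervals still allow moderate changes: that of Nqo1 ran from -0.35 to 1.43 and that of Txnrd1 from -0.46 to 0.31. Single animals also moved them: Nqo1 was 0.27 without animal 52 and 0.84 without animal 50, Akr7a3 was 0.58 without animal 52, and Akr1b8 was -0.048 without animal 54, none of them called.

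**Figure D2:**
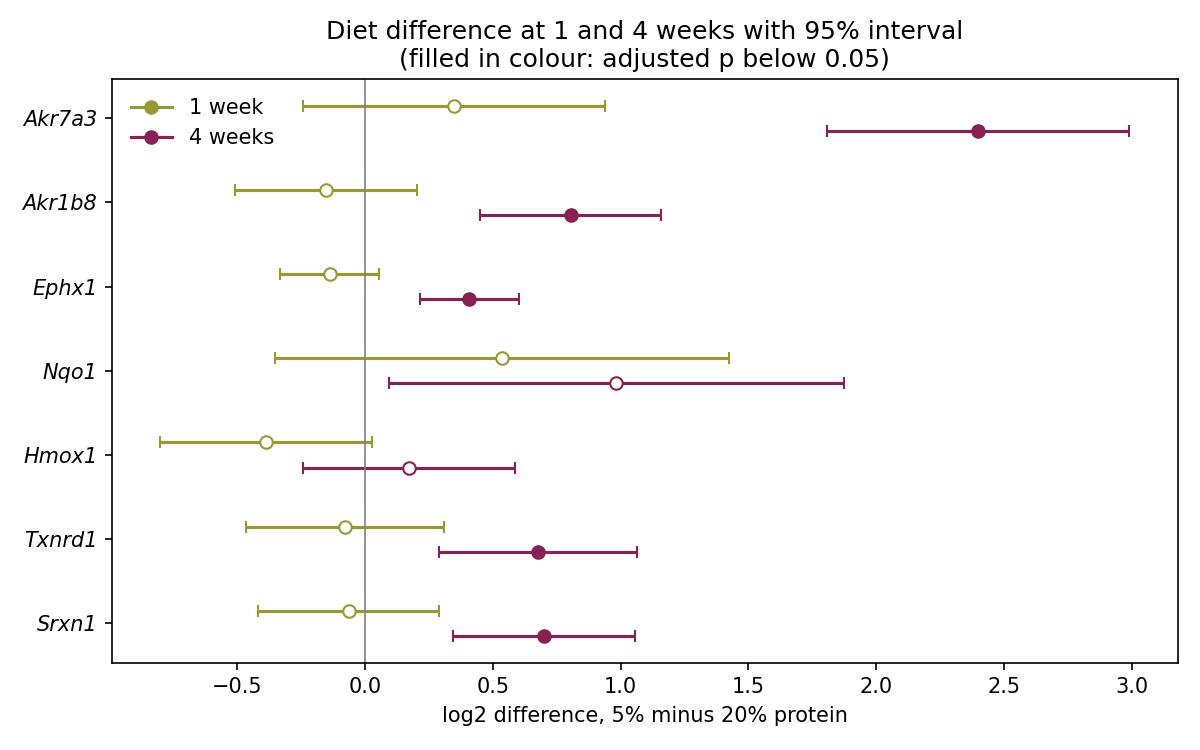
Log2 difference of 5% minus 20% protein for each gene at 1 and 4 weeks, with its 95% interval from the limma fit; filled points passed the test. At 4 weeks 5 points are filled, led by Akr7a3 at 2.40, and at 1 week none is.

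At 1 week the 20% animals split by run in 4 of the genes. Nqo1 had log2 intensities of 6.87, 6.82 and 7.58 in the 3 animals of the second run and 9.47, 9.35 and 8.86 in the 3 of the fourth. These lie 2.14 ± 0.43 apart, 4.40-fold (adjusted p = 0.00283). Hmox1 went the other way. Its second-run animals on 20% stood at 8.41, 8.60 and 8.26 and its fourth-run animals at 7.41, 7.45 and 7.35, a difference of -1.02 ± 0.20 (adjusted p = 0.00215). On 20% protein, then, the quinone reductase was low where the haem oxygenase was high, and neither gene's 2 sets of 3 animals overlapped.

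Txnrd1 and Srxn1 split in the direction of Hmox1. Txnrd1 was 8.80, 9.10 and 8.93 in second-run and 8.20, 8.14 and 8.01 in fourth-run animals (-0.82 ± 0.20, adjusted p = 0.00958). Srxn1 was 6.06, 6.27 and 5.90 against 5.29, 5.39 and 5.30 (-0.74 ± 0.19, adjusted p = 0.0137). The second-run animals on 20% thus had Txnrd1 levels that overlapped those of the 5% group at 4 weeks. Akr7a3 (-0.54 ± 0.41), Akr1b8 (-0.07 ± 0.22) and Ephx1 (0.11 ± 0.13) were not called between these runs. In all, 1 gene was higher and 3 were lower in the fourth run, where 10.8% of all genes were called and 28.1% did not overlap.

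The 5% animals of the same runs showed no such call. None of the 7 genes was called between their runs, none at an unadjusted p below 0.05, and only 0.783% of all genes were. Nqo1 differed by 0.47 ± 0.43 and Hmox1 by -0.11 ± 0.20 there. In Nqo1, however, animal 50 of the second run stood at 7.17, near the second-run animals on 20%, while the other 5 animals on 5% lay between 8.77 and 9.27. Whether the diet difference itself depended on the run was tested: none of the 7 passed, against 7.29% of all genes. An unadjusted p below 0.05 was reached by 4 of them, a level at which the share of all genes is not given here. For Hmox1 the diet difference changed by 0.91 ± 0.28 between the runs (adjusted p = 0.0513) and for Nqo1 by -1.66 ± 0.61 (adjusted p = 0.103).

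Within the second run, Hmox1 was lower on 5% protein by -0.84 ± 0.20 (adjusted p = 0.0127), the only call among the 7, where 7.57% of all genes were called. Nqo1 was 1.37 ± 0.43 there (adjusted p = 0.0554). In the fourth run none was called and 1 had an unadjusted p below 0.05, where 8.49% of all genes were called. There Nqo1 (-0.30 ± 0.43), Hmox1 (0.07 ± 0.20), Txnrd1 (0.27 ± 0.20) and Srxn1 (0.33 ± 0.19) had signs opposite to those of the second run. The pooled 1 week values of these 4 genes are averages over estimates of opposite sign. As the fourth-run estimates were not called, a reversal of the diet effect between runs was not shown. Between the runs of the 20% animals, 1 of 5 cholangiocyte and 1 of 4 sinusoidal endothelial markers were called, both higher in the fourth run. Calls between these runs were made in 10.8% of all genes. None was called of 10 Kupffer cell, 7 hepatocyte, 7 stellate cell, 6 erythroid and 6 neutrophil and lymphocyte markers. Summed cholangiocyte marker intensity was 286 to 301 in second-run and 328 to 547 in fourth-run animals, without overlap. Such a separation was seen in 28.1% of all genes. Summed endothelial marker intensity overlapped, at 3531 to 3639 and 3311 to 3643, and summed Kupffer marker intensity was 6578 to 8952 in second-run and 7180 to 9370 in fourth-run animals. The part of these cell types in the split was not tested.

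**Figure D3:**
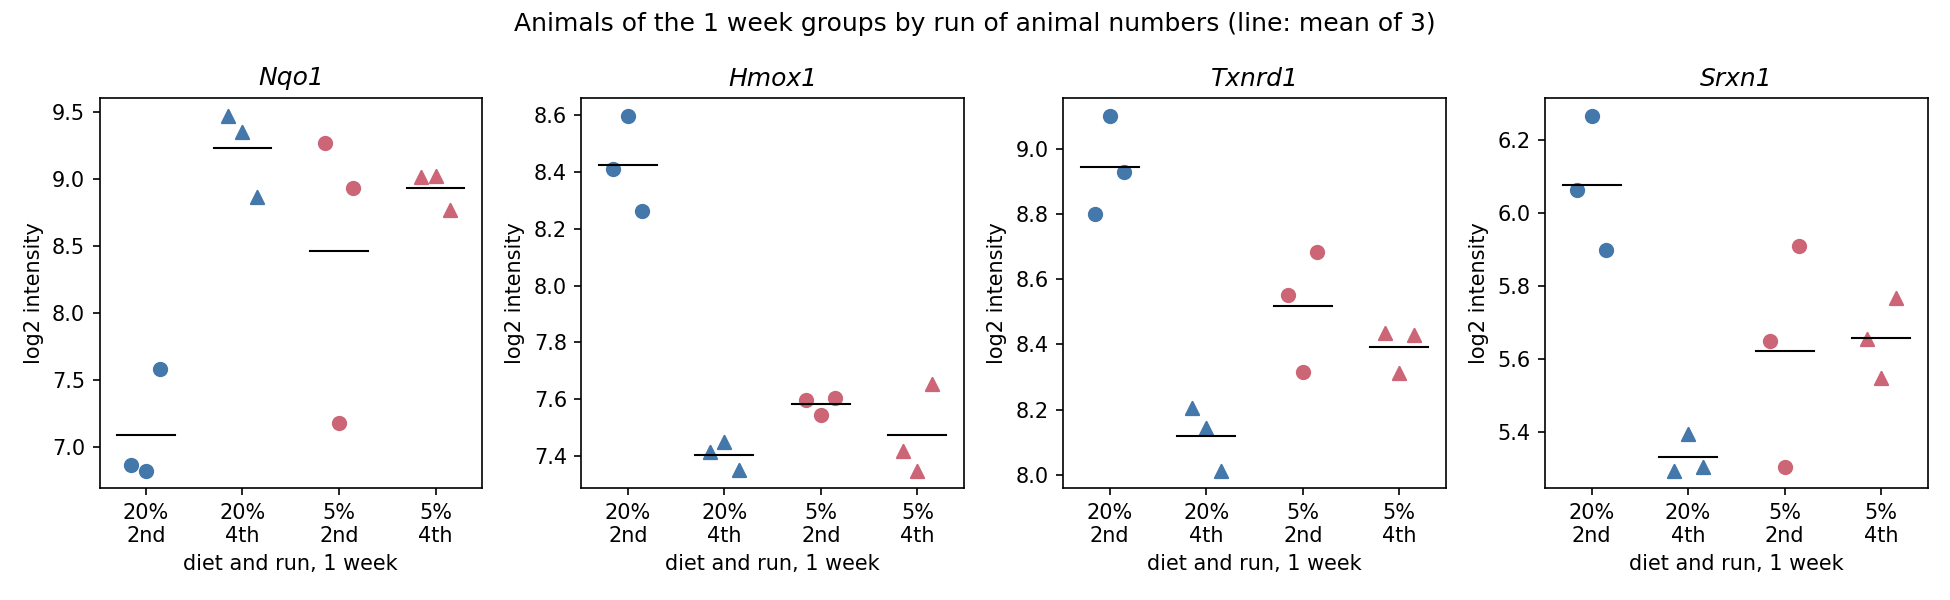
Log2 intensity of Nqo1, Hmox1, Txnrd1 and Srxn1 in the 12 rats fed for 1 week, by diet and run of animal numbers (the second or the fourth); each point is an animal and each line the mean of 3. In the 20% animals Nqo1 was 2.14 higher in the fourth run and the other three genes were lower, without overlap, while the 5% animals of both runs overlapped.

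The change of the diet effect with time was tested directly. It was positive for all 7 genes, with a median of 0.75, and 3 passed, where 3.54% of all genes were called higher. The difference of the diet effects, 4 weeks minus 1 week, was 2.05 ± 0.41 for Akr7a3 (adjusted p = 0.00535), 0.96 ± 0.24 for Akr1b8 (adjusted p = 0.0232) and 0.55 ± 0.13 for Ephx1 (adjusted p = 0.0188). None of these 3 genes was called between the runs of the 20% animals at 1 week. With 3 animals per run this does not show equal levels, Akr7a3 being at -0.54 ± 0.41. Srxn1 (0.77 ± 0.24, adjusted p = 0.0625) and Txnrd1 (0.75 ± 0.27, adjusted p = 0.092) did not pass, but both did without animal 26 (adjusted p = 0.0155 and 0.036). Srxn1 also passed without animal 29, 77, 78 or 79 (adjusted p from 0.0416 to 0.0477), and with the lowest 33.3% of genes left out (adjusted p = 0.0478). With run within its week as a covariate Akr7a3 alone passed, and Akr1b8 (0.70, adjusted p = 0.103) and Ephx1 (0.54, adjusted p = 0.0513) did not. Hmox1 (0.56 ± 0.28, adjusted p = 0.264) and Nqo1 (0.45 ± 0.61, adjusted p = 0.737) did not pass.

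Over time on 5% protein the same 3 genes were higher at 4 weeks than at 1 week, where 4.15% of all genes were called higher. Akr7a3 rose by 1.61 ± 0.29, 3.06-fold (adjusted p = 0.00137), Akr1b8 by 0.69 ± 0.17 (adjusted p = 0.0141) and Ephx1 by 0.35 ± 0.09 (adjusted p = 0.0214). In each of these genes 5 of the 6 animals at 4 weeks lay above the highest at 1 week. Leaving out animal 32 or animal 74 ended the call of Ephx1 (adjusted p = 0.0618 and 0.0571), and that of Akr1b8 ended when only the 5% groups were fitted (adjusted p = 0.0555). Srxn1 was called without animal 26 (0.59, adjusted p = 0.0225). On 20% protein no member was called between the times, where 2.52% of all genes were, and 1 had an unadjusted p below 0.05. That was Hmox1, at -0.69 ± 0.20 (adjusted p = 0.0671), which passed without animal 63 (-0.85, adjusted p = 0.0124), 77, 78 or 79. No run holds both times, so a run and a time cannot be told apart for a single run.

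Ordered by mean, the 5% animals at 4 weeks were the highest group for 6 of the genes, and the 20% animals at 4 weeks the lowest for all but Nqo1. The step up to the 5% group at 4 weeks was larger than the wider SD of the neighbouring groups for Akr7a3 (1.61), Akr1b8 (0.54), Ephx1 (0.21) and Nqo1 (0.78). For Txnrd1 and Srxn1 that step (0.34 and 0.39) stayed within it, but the lowest step, from 20% at 4 weeks to 5% at 1 week, did not (0.26 and 0.25). No other neighbouring groups of these 6 genes differed beyond their spread. Hmox1 ran in another order, from 7.22 ± 0.42 on 20% at 4 weeks through 7.40 ± 0.20 and 7.53 ± 0.12 on 5% at 4 weeks and 1 week to 7.91 ± 0.57 on 20% at 1 week (SD, n = 6), and no neighbours differed beyond their spread.

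The members also varied together within groups to differing degrees. Over the deviations of the 24 animals from their group means, the 21 pairs of members had a median Pearson r of 0.20, and 16 were positive. Txnrd1 and Srxn1 had the highest, 0.79, followed by Akr7a3 and Txnrd1 at 0.69. Nqo1 and Hmox1 had the lowest, -0.59, and Nqo1 was negative with 5 of the other 6 genes. The points share the animals and the array normalization, and the run split at 1 week enters them, so the values are a description.

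**Figure D4:**
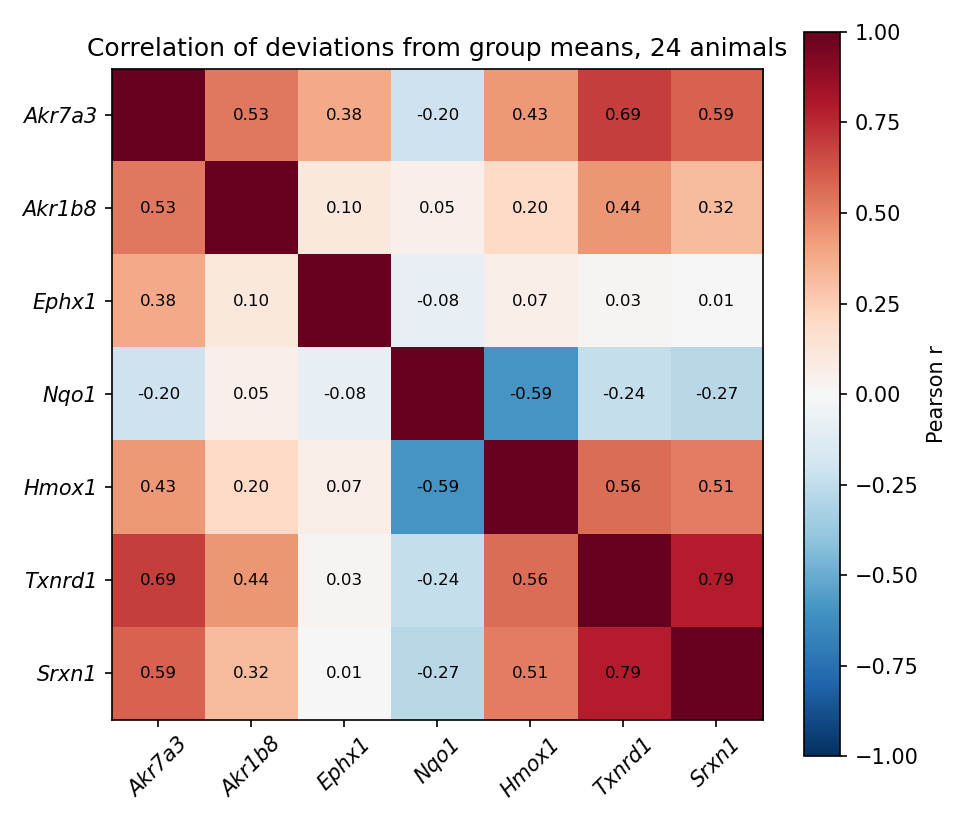
Pearson r between each pair of the 7 genes over the deviations of 24 rats from their group means; colour runs from -1 (blue) to 1 (red). The Txnrd1 and Srxn1 pair is the highest at 0.79, and the row of Nqo1 is mostly negative, down to -0.59 with Hmox1.

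Genes with the most similar profiles over all 24 animals were looked up for each member. For Akr7a3 they were Zfoc1 (r = 0.93), Ccdc92 (0.92) and Ankrd13b (0.90), and on deviations from group means Pir (0.85), the NRF2-responsive gene of pirin, and Trappc14 (0.79). Srxn1 was closest to Polr3g (0.90), Npm3 (0.90) and Wwc3 (0.90), and on deviations to Golt1b (0.90) and Npm3 (0.88). Txnrd1 was closest to Ikbkg (0.87), Wwc3 (0.87) and Srxn1 itself (0.87), and on deviations to Abcf2 (0.87) and Ikbkg (0.86).

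The 4 remaining members had these nearest genes. Akr1b8 was closest to Fam228b (0.87), Mfsd10 (0.86) and Rnps1 (0.85), with Fam228b (0.80) and Parm1 (0.75) on deviations. Ephx1 was closest to Fbxl4 (0.78), C10h17orf58 (0.77) and Abhd11 (0.77), with Or2w1 (0.77) and Sec14l4 (0.73) on deviations. Nqo1 was closest to Peli1 (0.78), C5h9orf43 (0.70) and Ccdc38 (0.70), with S100g (0.74) and Prkdc (0.73) on deviations. Hmox1 was closest to Mfsd12 (0.80), Emd (0.80) and Mindy4 (0.79), with Slc10a3 (0.87) and Plekha3 (0.85) on deviations. These are the top values of a search over all genes and 24 animals that share groups, and no test is attached to them.

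Among the regulators, the transcripts of NRF2 and KEAP1 did not pass the test at 4 weeks, while several partner factors did. Of 15 measured regulators 4 rose and 3 fell on 5% protein at 4 weeks, with a median difference of 0.02. For this and the following lists, 13.4% of all genes were called higher and 12.4% lower at 4 weeks, and 1.86% and 2.44% at 1 week. Nfe2l2, which encodes NRF2, did not pass (0.29 ± 0.16, adjusted p = 0.196), nor did Keap1 (-0.04 ± 0.08), the NRF2 competitor Bach1 (0.16 ± 0.11), Nr1i3 (0.02 ± 0.32) or Ahr (0.54 ± 0.22, adjusted p = 0.0787). The related factor Nfe2l1 rose by 0.97 ± 0.11 (adjusted p = 3.09e-07). Among the small MAF partners, Mafk rose by 0.90 ± 0.08, Maff by 0.34 ± 0.09 and Mafg by 0.28 ± 0.07. Nr1i2, which encodes PXR, fell by 0.67 ± 0.16, and Arnt, the partner of AHR, by 0.65 ± 0.09. At 1 week 1 of 15 rose, Nfe2l1 by 0.40 ± 0.11 (adjusted p = 0.0304), and none fell. Transcript levels do not report the activity of these proteins.

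Other NRF2 targets moved in both directions at 4 weeks. Of 39 measured, 12 rose and 5 fell, with a median of 0.01. Gsta3, a glutathione transferase, rose by 4.59 ± 0.19 and the export pump gene Abcc3 by 3.50 ± 0.20, whereas Gstm2, another transferase, fell by 2.51 ± 0.27 and Ptgr1, a reductase, by 1.17 ± 0.27. Gsr, glutathione reductase, rose by 0.44 ± 0.11, and Me1, which supplies NADPH, by 1.62 ± 0.40. The subunits of the enzyme that limits glutathione synthesis did not pass (Gclc 0.38 ± 0.26, Gclm 0.00 ± 0.22), nor did Txn1 (-0.12 ± 0.07), Prdx1 (-0.04 ± 0.07), Blvra (-0.35 ± 0.14) or Blvrb (0.10 ± 0.11). At 1 week 3 rose and 3 fell, among them the cystine transporter gene Slc7a11 (2.37 ± 0.37), Abcc3 (0.98 ± 0.20), Gstm2 (-1.23 ± 0.27) and Gstm1 (-0.52 ± 0.07). Between the runs of the 20% animals at 1 week, 8 of the 39 were higher and 7 lower in the fourth run, where 10.8% of all genes were called.

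Targets of CAR and PXR also moved in both directions. Of 22 measured, 6 rose and 6 fell at 4 weeks, with a median of -0.15. The classical CAR targets Cyp2b2 and Cyp2b1, near-identical cytochrome P450 genes whose probes may not tell them apart, rose by 2.49 ± 0.43 and 2.04 ± 0.38. Cyp2c7 fell by 3.09 ± 0.58 and the sulfotransferase gene Sult2a1 fell by 2.77 ± 0.50, and Por, the P450 reductase, did not pass (-0.36 ± 0.35). At 1 week 2 rose and 5 fell, with Abcc3 and Abcb1a (0.80 ± 0.21) up and Cyp2c7 (-2.36 ± 0.58) and Sult2a1 (-1.82 ± 0.50) down. Of 7 AHR targets, none rose and 1 fell at 4 weeks, Cyp1a2 by 0.69 ± 0.18, while Cyp1a1 was -0.10 ± 0.30; at 1 week none was called and 1 had an unadjusted p below 0.05.

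The families of the members held rises and falls. Of 21 measured aldo-keto reductases and paralogs, 4 rose and 6 fell at 4 weeks, with a median of -0.04. Akr1b10 rose by 1.11 ± 0.35 and Ephx2, soluble epoxide hydrolase, by 0.94 ± 0.29, but Akr1c1 fell by 4.98 ± 0.27 and Akr1c12 fell by 2.60 ± 0.44, and genes of the Akr1c cluster are close copies whose signals may mix. The nearest paralog of Akr7a3, Akr7a2, was at -0.04 ± 0.11, and Nqo2 (-0.46 ± 0.17, adjusted p = 0.0533) and Hmox2 (0.27 ± 0.17) did not pass. At 1 week none rose and 2 fell, Akr1c1 by 2.08 ± 0.27 and Akr1c3 by 1.63 ± 0.35.

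In the thioredoxin and peroxiredoxin system, 2 of 19 genes rose and 7 fell at 4 weeks, with a median of -0.12. The glutaredoxin genes Glrx2 and Glrx3 rose by 0.51 ± 0.10 and 0.39 ± 0.09, and Sesn3, a sestrin, and Msra, a methionine sulfoxide reductase, fell by 0.68 ± 0.18 and 0.60 ± 0.15. At 1 week 1 gene fell, Msrb1 by 0.53 ± 0.12. Of 15 genes of haem handling around Hmox1, 1 rose and 3 fell at 4 weeks: the ferritin gene Ftl1 rose by 0.35 ± 0.09, and Cd163, the macrophage haemoglobin receptor, and Alad fell by 0.44 ± 0.12 and 0.36 ± 0.11. At 1 week 3 of 15 fell, Blvrb by 0.41 ± 0.11 and Uros by 0.38 ± 0.09 among them. Membership of all these lists was chosen with earlier results known, so the counts describe them and nothing is read from them about regulation.

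**Figure D5:**
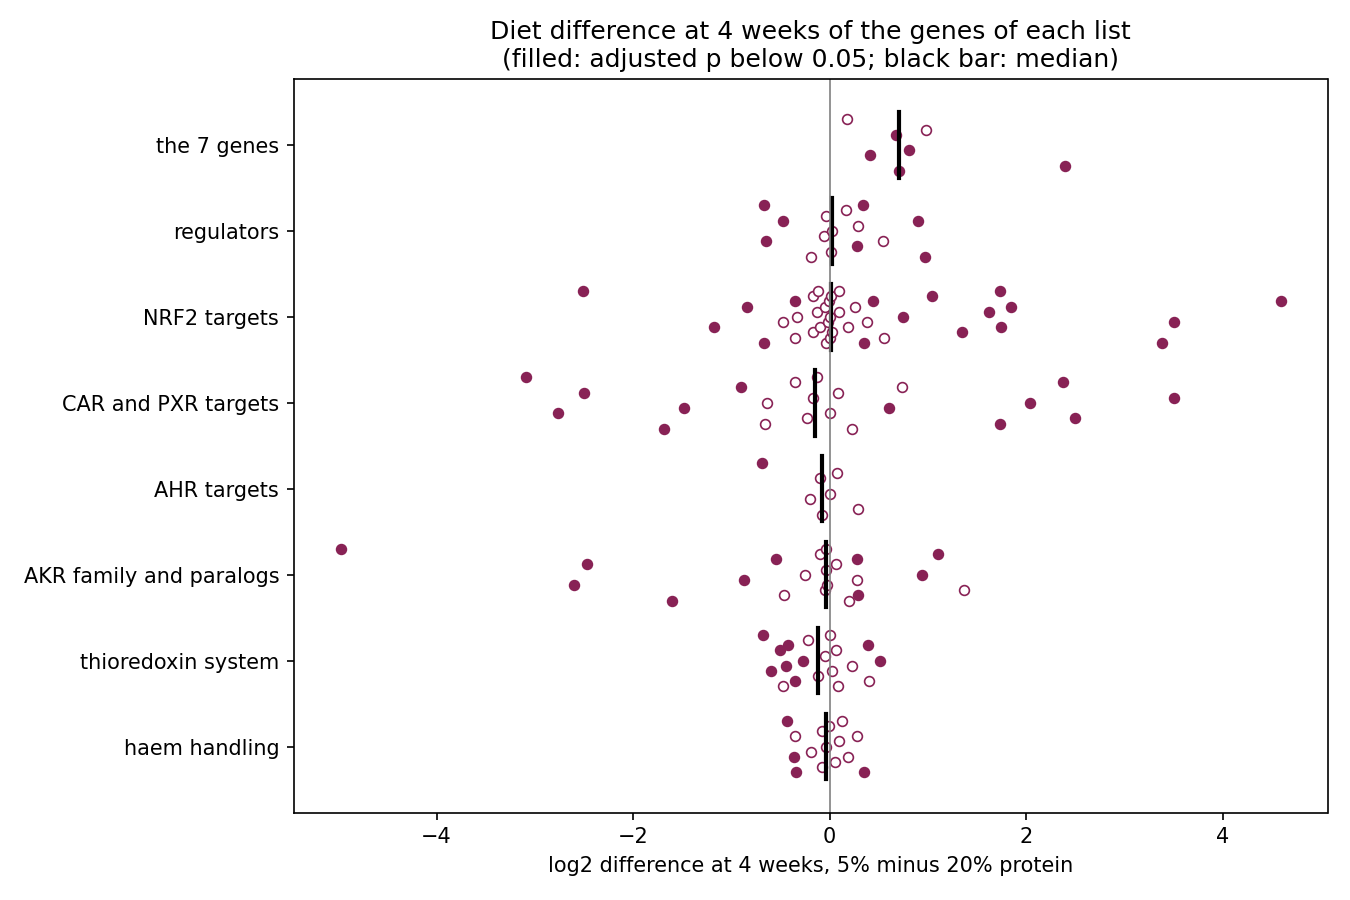
Log2 difference of 5% minus 20% protein at 4 weeks for each measured gene of the lists, 1 point per gene; filled points passed the test and black bars are medians. The 7 genes all lie above 0 with a median of 0.70, while the medians of the other lists lie between -0.15 and 0.02.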

How the data were processed

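Liver RNA of 24 rats was measured on 1-colour Affymetrix whole-transcript arrays. Per the labels, the deposited values are intensity after RMA (robust multi-array average) on a linear scale. RMA, with no version, is also what the submitters' processing notes name, and other steps are not given in the sources used here. Without detection calls no limit of detection can be stated, and the number of arrays limits the precision. The log2 of the deposited intensity (range 3.27 to 15793) was used.

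The 18644 of 29214 probe sets that pair with a single gene symbol were used; 962 pair with several symbols and 9608 have none. The probe set with the highest mean was kept for the 879 genes with several, which left 17245 genes. The 4 group means were fitted with limma 3.58.1 in R 4.3.3 (data.table version 1.17.8; 20 residual and 3.95 prior degrees of freedom), with Benjamini-Hochberg adjustment over all genes, two-sided, called below 0.05. The fit was tested on simulated data with independent animals and no runs, so that test does not cover the effect of runs on the calls. Values within runs came from a joint fit with a mean for every combination of group and run. At 1 week no well row of the titles held both diets, so well row and diet cannot be told apart there.

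The members and the gene lists were chosen with earlier results of these data known. The named genes were the members, a fixed list of regulators and targets, the 3 and 2 most similar genes per member, and the 2 largest called rises and falls per list and diet comparison. Some genes of that list are not reported here. Alternatives were other normalizations, an offset of 16, the probe set rule, a filter leaving out the lowest 33.3% of genes, trend and robust estimation, well row and run as random blocks, run as a covariate, each run alone, only the groups compared, and each animal left out. The fits between runs within a diet were chosen after seeing the data.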

Additional observations from a re-analysis of the deposited data

Results flagged for a closer look

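In 28 groups of 6 animals (7 genes in 4 groups), 2 held an animal far from the others by Dixon's test, and chance flags about 1 in 20. Nqo1 in animal 50, on 5% protein for 1 week, stood at 7.17 in log2 intensity, where the nearest of the other animals was 8.77. Hmox1 in animal 63, on 20% protein for 4 weeks, stood at 8.02, where the nearest was 7.31.

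The diet effect differed between 4 weeks and 1 week, by the test of that difference in the limma fit, for Akr7a3 (2.05), Akr1b8 (0.96) and Ephx1 (0.55), all larger at 4 weeks. In that test 3.54% of all genes were called higher. With run within its week as a covariate Akr7a3 alone of these genes passed.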

How the results depend on the processing

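Of 896 values recomputed under an alternative, 861 kept their direction and side of the threshold, 10 lost the call, 14 gained it and 11 reversed. The count of members called between the diets was 0 at 1 week and 5 at 4 weeks in the reported fit; it was 1 in the second run alone, and 1 in the third run alone, which holds 1 animal on 5% protein. The 5 calls at 4 weeks were kept whichever animal was left out. For the change of the diet effect with time the count was 3, 1 with run within its week as a covariate and 4 with the lowest 33.3% of genes left out; leaving out 1 animal gave 3 to 5, the 5 without animal 26. Between the times on 20% protein the count was 0, and 0 to 1 when 1 animal was left out (1, Hmox1, without 63, 77, 78 or 79). Reversals touched uncalled differences alone. At 1 week they were Ephx1 in the second run (0.039) and, in the fourth, Nqo1 (-0.30), Hmox1 (0.068), Txnrd1 (0.27) and Srxn1 (0.33). Leaving out 1 animal moved Txnrd1 at 1 week between -0.18 and 0.037 and Srxn1 between -0.15 and 0.048, and, with no change of sign, Nqo1 between 0.27 and 0.84, Akr7a3 between 0.23 and 0.58, Akr1b8 between -0.21 and -0.048, Ephx1 between -0.19 and -0.084 and Hmox1 between -0.50 and -0.25. At 4 weeks Hmox1 was -0.15 in the third run, and 0.11 to 0.33 when 1 animal was left out. The cause was not tested. No paired analysis was possible because each animal number occurs in a single group.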
